A study of Solanum lycopersicum with 12 samples.

Results

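Hypoxia-related genes of tomato roots, ADH2 (alcohol dehydrogenase, gene ID 544074) and GLB2 (haemoglobin, gene ID 543822), are described here on 12 GeneChip Tomato Genome Arrays. They are the 2 probe sets, of 10101 tested, whose gene symbol or synonym is ADH or GLB followed by a digit, and the pair was selected on the differences between L4 and WT in the S. Expression was measured in 2 laser-captured sectors of the root, the outer EC (epidermis + cortex) and the central S (stele), with 3 arrays for each of 4 groups. The groups are the EC and the S of wild-type tomato (WT, var. Beta) and the EC and the S of transgenic line 4 (L4, the same variety expressing AtHMA4, a Zn transporter of Arabidopsis). The transgene is under the 35S promoter, which is active in most tissues, and L4 is a single transgenic line, so the line and the transgene cannot be told apart. All plants received Zn at 5 μM. By the labels the exposure lasted 15 days and the plants were 25 days old, and a shorter exposure is given in the methods of the paper. Each array holds amplified RNA of pooled root fragments, and the 3 arrays of a group come from independent experiments.

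When oxygen is short, plant cells make ATP by glycolysis and pass pyruvate through acetaldehyde to ethanol. Alcohol dehydrogenase, a Zn enzyme, carries out the last of these steps and returns NAD+ to glycolysis, and its genes are among those that rise most under low oxygen. In tomato ADH2 is also known from ripening fruit, where it shapes the balance of flavour aldehydes and alcohols. Plant haemoglobins bind oxygen and react with nitric oxide. Class 1 proteins are the ones best known from hypoxia, while the Arabidopsis gene of class 2, the class of tomato GLB2, is known from responses to cold and cytokinin.

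The arrays had medians of 3.72 to 4.02 and lower quartiles of 2.37 to 2.81 on the log2 scale. L4 EC replicate 2 stood apart, with a mean of 13.9 over 27 spike-in control probe sets against 9.65 to 12.4 on the other arrays, and an SD over all probe sets of 3.04 against 3.32 to 3.47. The EC differences of ADH2 and GLB2 and the count of called probe sets are therefore also given without it. The L4 sector differences and the results for other genes include it. Of 7 marker genes of the EC, the phosphate transporter genes PT1 and PT2 were higher by 1.73 and 1.55 in the EC than in the S of the WT, the other 5 differed by -0.32 to 0.37, and 4 of the 7, PT2 among them, had a mean under 4. The 3 genes taken as S markers did not mark the S. In the WT sus3 and SUT2 were higher by 0.21 and 0.64 in the EC, and the 2 probe sets of SUT4, both under 4, disagreed (0.29 and -0.71). The sectors are thus called by their labels.

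ADH2 had a high signal on all 12 arrays and a lower one in L4 than in WT roots in both sectors. In the WT EC its log2 values were 13.85, 14.79 and 14.67, and in the L4 EC they were 11.78, 13.11 and 12.44. The 3 L4 values lay below the 3 WT values, and the closest pair of arrays was 0.74 apart. The means were 14.43 ± 0.51 (SD, n = 3) and 12.44 ± 0.66 (SD, n = 3). This is a difference of -1.99 on the log2 scale (standard error 0.44), a 3.98-fold lower signal in L4. Its adjusted p was 0.345 in limma after Benjamini-Hochberg adjustment over all probe sets, so ADH2 did not pass the threshold of 0.05. In the EC, limma called 0 of 10101 probe sets (0%) at an adjusted p under 0.05 and a change of 1.2-fold or more. EC differences were negative for 39.3% and positive for 60.7% of all probe sets. At an unadjusted p under 0.05 with the same fold, 488 probe sets (4.83%) were lower in L4, ADH2 among them, and 228 (2.26%) were higher. ADH2 had the 38th smallest p of all probe sets and the 7th smallest of the 909 probe sets with a gene symbol. In the EC 6.31% of all probe sets had L4 arrays entirely below the WT arrays, as ADH2 did, and 5.98% had them entirely above. In these bulk samples fewer cells that express a gene and less RNA per cell cannot be told apart.

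The EC difference of ADH2 kept its direction without any single array, between -2.32 without L4 EC replicate 2 and -1.66 without L4 EC replicate 1, and over these fits its adjusted p was 0.169 to 0.928 in limma. With array weights, which gave L4 EC replicate 2 a weight of 0.067 and whose estimate stopped before converging, the difference was -2.19 with an adjusted p of 0.0035, past the threshold, and the same weights called 1467 probe sets in the EC.

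In the S the values of ADH2 were 14.13, 15.00 and 13.66 in the WT and 12.05, 12.12 and 11.51 in L4. All 3 L4 values were again below all 3 WT values, with 1.55 between the closest pair. The group means were 14.27 ± 0.68 (SD, n = 3) and 11.89 ± 0.33 (SD, n = 3), a difference of -2.37 (standard error 0.44) or 5.19-fold. Since ADH2 and GLB2 were picked with their S differences known, these are descriptions, and no test is attached to them. In the S the difference was negative for 52% and positive for 48% of all probe sets. There 2.48% of all probe sets had L4 arrays entirely below the WT arrays, and limma called 0 of 10101 there (0%), with 133 (1.32%) lower and 119 (1.18%) higher at an unadjusted p under 0.05 and 1.2-fold.

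Over both sectors, the 6 WT values of ADH2 ranged from 13.66 to 15.00 with a median of 14.40, and the 6 L4 values from 11.51 to 13.11 with a median of 12.08. The lowest WT array, S replicate 3, lay 0.56 above the highest L4 array, EC replicate 2. Of all probe sets, 0.347% had every L4 array below every WT array, a count to which the S arrays that led to the choice of ADH2 contribute. Both sectors of a genotype may come from the same roots, so the sectors are not independent evidence of a genotype difference. The order of the group means was WT EC, WT S, L4 EC and L4 S. The neighbours WT EC and WT S, and L4 EC and L4 S, had overlapping arrays.

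**Figure D1:**
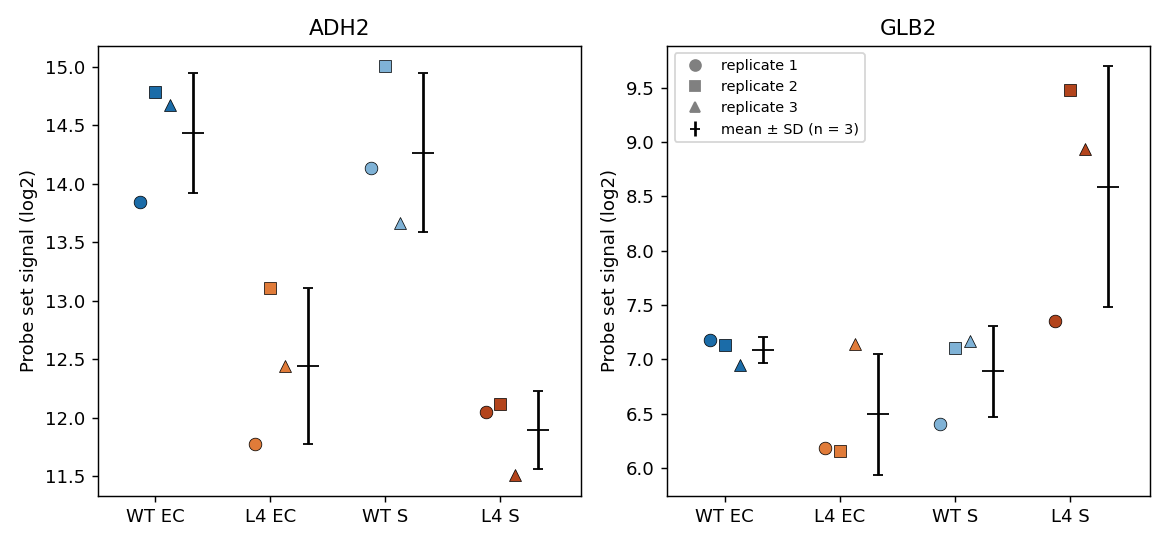
Log2 signal of the ADH2 probe set (left) and the GLB2 probe set (right) on each array (y axis) for the 4 groups (x axis); symbols are replicates and the bars show the mean ± SD of 3 arrays. For ADH2 all L4 points lie below all WT points, with 13.11 as the highest L4 and 13.66 as the lowest WT value, and for GLB2 the L4 S points, at 7.35 to 9.48, are the 3 highest of the 12.

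GLB2 had a higher signal in L4 than in the WT in the S, and its arrays overlapped in the EC. Its S values were 6.41, 7.10 and 7.16 in the WT and 7.35, 9.48 and 8.94 in L4. Every L4 value exceeded every WT value, although L4 replicate 1 was only 0.19 above the highest WT array. The means were 6.89 ± 0.42 (SD, n = 3) and 8.59 ± 1.11 (SD, n = 3), a difference of 1.70 (standard error 0.51) or 3.25-fold. Without L4 S replicate 2 it was 1.25, and without L4 S replicate 1 it was 2.32. This is the difference for which the gene was picked and it carries no test. Of all probe sets 1.82% had L4 arrays entirely above the WT arrays in the S.

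GLB2 values in the EC were 7.18, 7.13 and 6.95 in the WT and 6.18, 6.15 and 7.14 in L4. Replicates 1 and 2 of L4 were below the WT, and replicate 3 lay within the WT values. The means were 7.09 ± 0.12 (SD, n = 3) and 6.49 ± 0.56 (SD, n = 3), and the difference of -0.59 (standard error 0.51, adjusted p = 0.718 in limma) did not exceed the spread between the arrays. It was -0.12 after quantile normalization and -0.092 with array weights, -0.43 without L4 EC replicate 2 and -0.92 without L4 EC replicate 3, so its size depended on the scaling and on single arrays. The difference between the sectors in the genotype effect of GLB2, EC minus S, was -2.29 (standard error 0.72), against 0.38 (standard error 0.62) for ADH2. Both contain the S differences that led to the choice of the genes.

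The sectors of the wild type overlapped for both genes, while EC arrays lay entirely above S arrays for 3.32% and entirely below them for 2.9% of all probe sets. For ADH2 the EC mean exceeded the S mean by 0.17 (standard error 0.44). Arrays of the same number differed by -0.28, -0.22 and 1.00, so that replicate 3 alone gave the positive sign. Without WT S replicate 3 the difference was -0.13. For GLB2 it was 0.20 (standard error 0.51), and arrays of the same number differed by 0.77, 0.029 and -0.22. Without WT S replicate 1 the difference was -0.046.

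Within L4 the sectors overlapped for ADH2 and not for GLB2. The EC mean of ADH2 was 0.55 above the S mean (standard error 0.44). For GLB2 the EC minus S difference was -2.10 (standard error 0.51), a signal 4.28-fold lower in the EC. By replicate number GLB2 differed by -1.17, -3.33 and -1.80, lower in the EC each time. In L4 the EC arrays lay below the S arrays for 2.86% and above them for 1.97% of all probe sets, and this comparison, too, rests on the L4 S arrays that led to the choice of GLB2. The order of the group means of GLB2 was L4 S, WT EC, WT S and L4 EC, of which only the L4 S was apart from its neighbour.

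Both probe sets had signals clear of the low end of the array. ADH2 was 8.97 to 12.6 above the lower quartile of its array and 0.45 to 3.94 below the highest value on it. The WT values were the nearer to the top of the range, and whether this affected the differences was not tested. GLB2 was 3.34 to 7.08 above the lower quartile and at least 5.85 below the highest value.

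No relation between the levels of ADH2 and GLB2 within groups was detectable with these arrays. Since ADH2 splits the arrays into WT and L4, and the S means were used to choose the genes, the relation was tested on deviations from the group means. Over 12 arrays these had a Pearson r of -0.053 and a Spearman rho of -0.077. In an exact permutation test, two-sided, exchanging replicate numbers within a genotype for both sectors together (36 arrangements, smallest possible p of 0.028), p was 0.889 for each. This was the only relation between samples that was tested. Without the 2 arrays farthest from the median of ADH2 r was -0.086, and without single arrays it was -0.19 (without L4 S replicate 2) to 0.078 (without L4 S replicate 1), so its sign is not settled. Within the 6 WT arrays, whose sectors overlapped for both genes, r was 0.039 and rho -0.43. Within the 6 L4 arrays they were -0.48 and -0.43. GLB2 splits the L4 arrays into EC and S, in part through the S arrays that led to its choice. The L4 values mix that split with the relation between arrays, so no relation within groups is read from them. The deviations of ADH2 and GLB2 had an r of 0.081 and 0.16 with those of the spike-in signal over the 12 arrays.

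**Figure D2:**
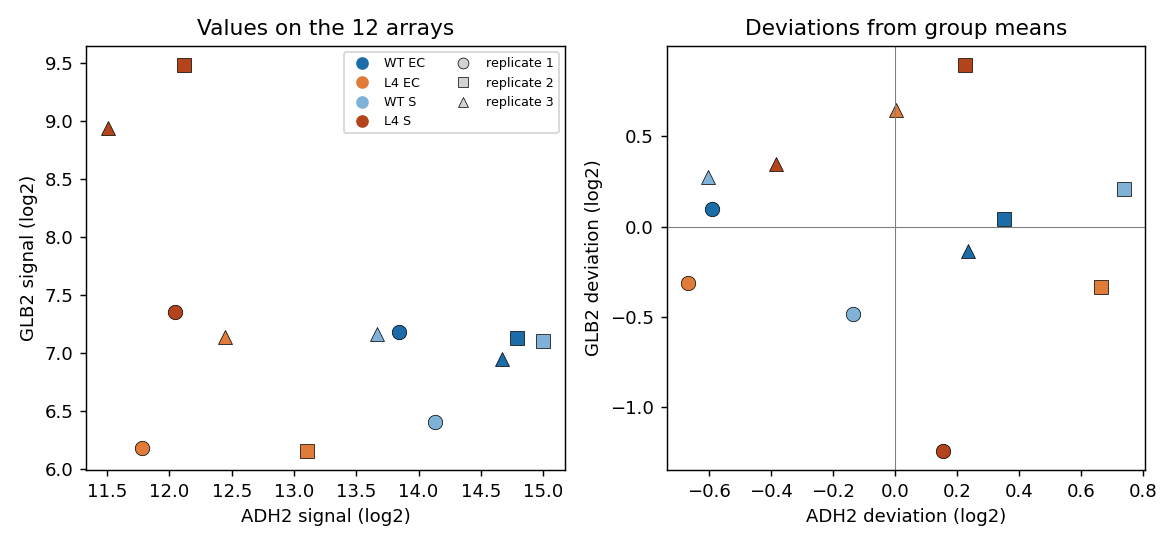
GLB2 against ADH2 on the 12 arrays, as log2 signal (left) and as deviations from the mean of the 3 arrays of the group (right); colours are groups and symbols replicates. On the left the L4 arrays lie to the left of the WT arrays and L4 S replicates 2 and 3 lie highest, and on the right the Pearson r is -0.053.

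The other genes of the pathway were taken from lists of names. Of 9 names of fermentation genes and 5 of haemoglobins, only ADH2 and GLB2 have a named probe set, so pyruvate decarboxylase, lactate dehydrogenase and class 1 haemoglobin are not analysed here. Of 36 names for sucrose cleavage, hexose use and glycolysis, 17 genes were found. Of these 8 had a negative and 9 a positive difference in the EC (median 0.20, against 0.075 over all probe sets), and 9 and 8 in the S (median -0.0051, against -0.0053). Limma called 0 of the 17 in either sector, and 5 had a mean under 4. At an unadjusted p under 0.05 and 1.2-fold, 1 was lower (sus3) and 1 higher (LIN7, with a mean under 4) in the EC, against 4.83% and 2.26% of all probe sets. In the S 2 were lower (sus3 and LOC543961, the latter with a mean under 4) and 0 higher, against 1.32% and 1.18%.

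The gene of this list with the highest r with ADH2 was sus3, which encodes a sucrose synthase. Sucrose synthase cleaves sucrose at a lower cost in ATP than invertase and hexokinase do, and its genes are known to respond to low oxygen. The values of sus3 in the EC were 13.43, 13.60 and 13.84 in the WT and 12.67, 11.51 and 11.50 in L4. Those in the S were 13.20, 13.74 and 13.31 in the WT and 12.18, 11.90 and 12.22 in L4. In both sectors all L4 arrays lay below all WT arrays, with differences of -1.73 (standard error 0.31, adjusted p = 0.317 in limma) and -1.32 (standard error 0.31). This gene was picked by its r with ADH2, which itself splits WT from L4, so that choice favours such a split. A split with L4 lower was also seen for 6.31% (EC) and 2.48% (S) of the probe sets tested. Across the 12 arrays sus3 had an r of 0.79 with ADH2, and for deviations from the group means r was -0.21. PGH1, the gene of enolase, a late enzyme of glycolysis, had differences of -0.47 and -0.64 (standard error 1.01), within the spread. Its values of 9.88 on WT S replicate 3, 10.32 on L4 EC replicate 2 and 9.10 on L4 S replicate 3 were the lowest, and on these 3 arrays the spike-in signal was highest. Its part in the values was not tested. The fructokinase gene FRK1 was at -0.76 and -0.74 (standard error 0.42), the hexokinase gene hxk1 at 0.74 and 0.57 (standard error 0.59), and the invertase gene LIN8 at 2.93 and 0.67 (standard error 1.63). In the L4 EC LIN8 had 9.64 and 9.65 on replicates 1 and 3 and 3.76 on replicate 2, against 3.82, 6.91 and 3.54 in the WT EC. Its EC difference thus sets replicates 1 and 3 of L4 against values mostly at the low end of the arrays, and its size is uncertain. None of these differences was called.

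Of 4 genes found for nitric oxide, nitrate and oxygen use, 3 had negative differences in each sector and none was called. Over all probe sets 39.3% (EC) and 52% (S) of the differences were negative. RBOH1, among the 3, had a mean of 2.43, at the low end of the arrays, and differences of -0.15 (EC) and -0.22 (S). AOX1a encodes the alternative oxidase, a mitochondrial enzyme that passes electrons to oxygen without pumping protons. Its differences were 1.24 (EC) and 1.83 (S), each with a standard error of 1.05. Its values overlapped, with 4.33, 5.98 and 4.31 in the WT EC and 7.59, 4.19 and 6.56 in the L4 EC. In the S the arrays of AOX1a overlapped too. Its WT mean there was 3.83, at the low end of the arrays, so the size of the S difference is uncertain. Wfi1, a gene of the NADPH oxidase family, was at -0.16 and -0.59 (standard error 0.60), and FDH at -1.83 and -0.61 (standard error 1.32).

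Of 9 transcription factor genes tied to low oxygen or ethylene, 6 had negative differences in either sector, against 39.3% (EC) and 52% (S) of all probe sets. The medians were -1.45 and -0.47. Limma called 0 of the 9, and EREB and ERF4 had a mean under 4. At an unadjusted p under 0.05 and 1.2-fold, 3 were lower in the EC, against 4.83% of all probe sets, and 1 in the S, against 1.32%, and none was higher in either. The EC values of the response factor gene ERF2 were 6.33, 8.20 and 8.92 in the WT and 3.36, 3.75 and 2.48 in L4. In the S they were 7.99, 8.93 and 7.80 in the WT, all above the L4 arrays, the lowest of which was 3.38. The L4 means, 3.20 and 3.90, were under 4, so the fitted differences of -4.62 and -4.34 (standard error 0.64, adjusted p = 0.139 in the EC) set the WT against values at the low end of the arrays, and their size is uncertain. JERF3 and JERF1, also of the response factor family, were at -1.45 (standard error 0.61, adjusted p = 0.668) and -1.10 (standard error 0.40, adjusted p = 0.630) in the EC, each with L4 arrays entirely below the WT arrays. They were at -0.90 and -0.47 in the S, with overlap. The gene abz1, named for its anaerobic expression, had EC values of 2.37, 7.69 and 8.55 in the WT and 3.07, 2.75 and 3.38 in L4. WT EC replicate 1 thus lay below all L4 arrays, and the difference of -3.13 (standard error 1.55, adjusted p = 0.715) did not exceed the spread. That array and the L4 EC arrays were all under 4, at the low end. Their order and the size of the difference are therefore uncertain. In the S abz1 was at 0.48.

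**Figure D3:**
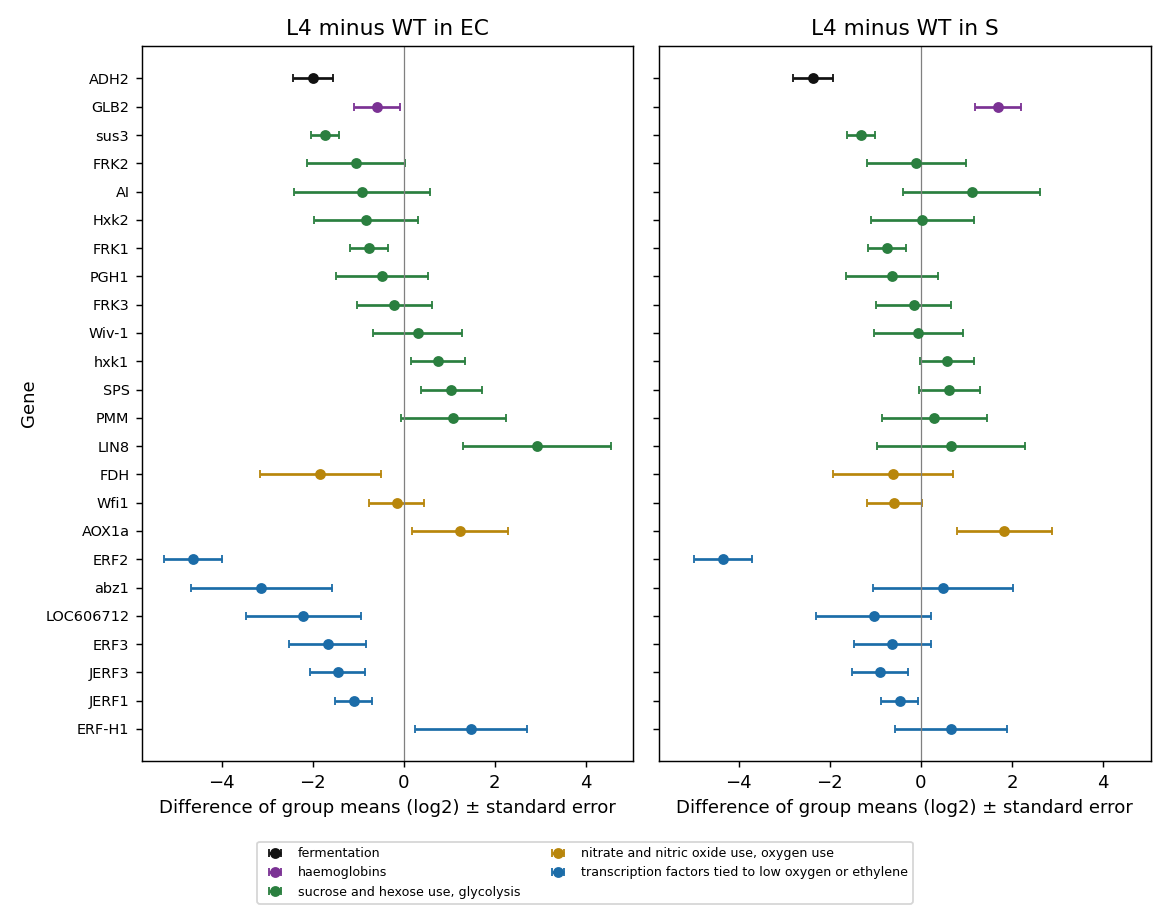
Difference of group means, L4 minus WT, on the log2 scale (x axis) for the genes of the lists whose mean signal reached 4 (y axis), in the EC (left) and the S (right), with bars for the standard error; colours are the lists. ADH2, sus3 and ERF2 lie on the negative side in both sectors (-1.99, -1.73 and -4.62 in the EC), and GLB2 is at -0.59 (EC) and 1.70 (S).

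Among the 587 other named probe sets with a mean of at least 4, those most like ADH2 over the 12 arrays were ACO5 (Pearson r of 0.96), ERF2 (0.90), IAA2 (0.89), GluB (0.86) and EIL2 (0.85). ACO5 encodes an oxidase of ethylene synthesis, ERF2 an ethylene response factor, IAA2 a repressor of auxin signalling, GluB a beta-1,3-glucanase and EIL2 a factor of ethylene signalling. Since ADH2 itself splits WT from L4, this likeness mostly restates that split, and a lower signal in L4 than in WT follows from the choice of these genes. ACO5, ERF2 and IAA2 reached the mean of 4 only through the WT. Their L4 means were under 4 in both sectors (3.52 and 2.56 for ACO5, 3.20 and 3.90 for ERF2, 3.65 and 3.76 for IAA2, EC first), at the low end of the arrays, so their deviations in L4 are not read. GluB and EIL2 had group means above 10 throughout, and for their deviations from the group means r with ADH2 was 0.69 and 0.38, as a description over 12 arrays. The same arrays were used to choose GluB and EIL2 by r, which favours a positive value. On WT EC replicate 1 ADH2, ACO5, ERF2 and IAA2 were each at their lowest value of that group. This is a single array, and it was among those by which the genes were chosen, so no relation is read from it. The most opposite patterns were those of the beta-galactosidase gene TBG6 (-0.75), LOC544060 (-0.75) and APS-AA2 (-0.74).

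The genes most like GLB2 had weaker likeness. They were LOC543632 (r of 0.74), VPE5 (0.73), LOC543883 (0.71), CIF1 (0.69), which encodes an inhibitor of invertase, and the auxin response factor gene ARF3 (0.68). LOC543883 reached the mean of 4 only through the S (4.93 in the WT and 6.31 in L4). Its EC means, 3.57 in the WT and 3.68 in L4, were at the low end of the arrays, so its EC values are not read. LOC543632 had an EC difference of -0.83 and an S difference of 0.83 (standard error 0.30). Its L4 arrays lay entirely below the WT arrays in the EC and entirely above them in the S. A group pattern like that of GLB2 follows from its choice by r, and rests in part on the S arrays that led to GLB2. The deviations of LOC543632 from the group means had an r of 0.73 with those of GLB2, on the same arrays that were used for this choice. The most opposite were NAC1 (-0.66), GLUII (-0.63) and DDTFR8 (-0.60). On the same measure GLB2 stood at rank 537 in likeness to ADH2, and ADH2 at rank 550 in likeness to GLB2. Both ranks rest in part on the S differences of opposite sign with which the pair was chosen. No relation between the 2 genes is read from them.

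**Figure D4:**
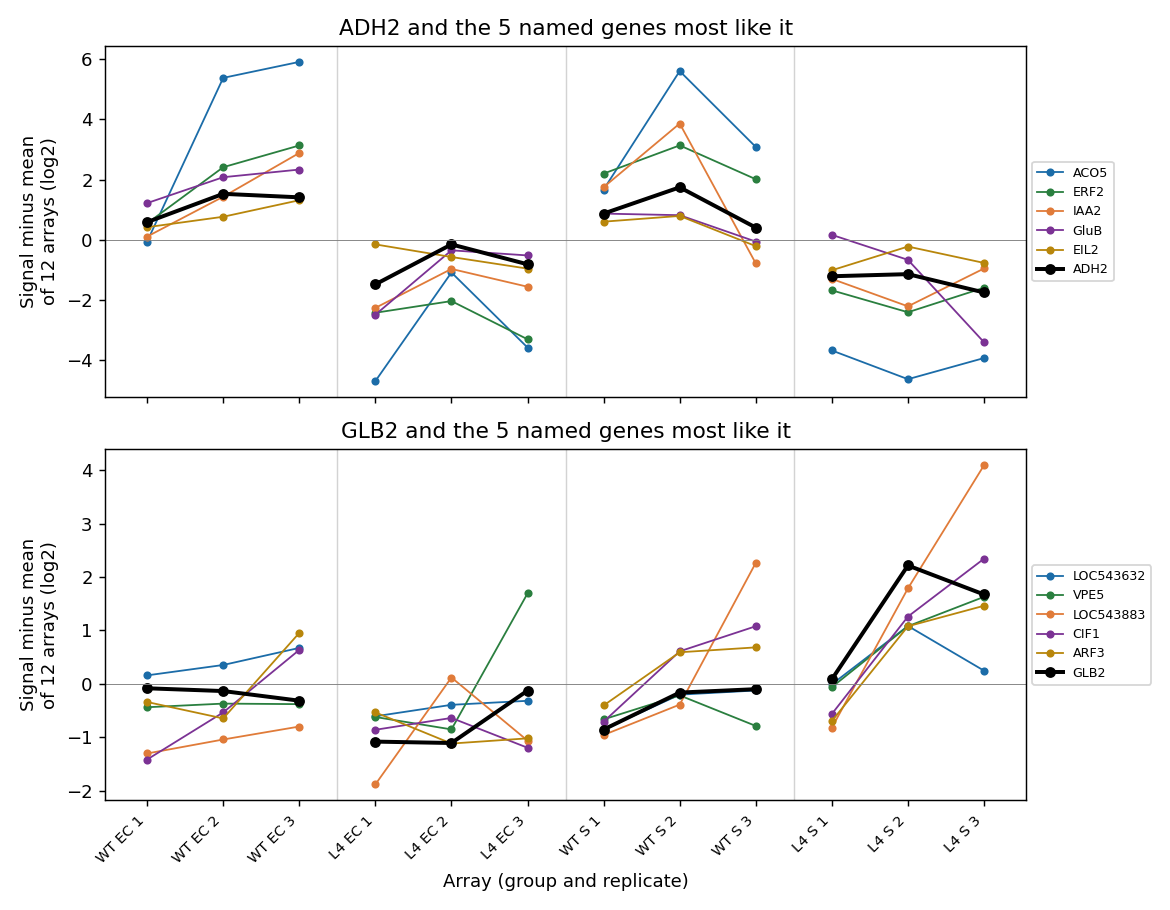
Log2 signal minus the mean of the 12 arrays (y axis) on each array (x axis) for ADH2 (top) and GLB2 (bottom), in black, and the 5 named genes with the highest Pearson r with each, in colour; lines within a group only link the points of a gene, since replicates have no order. ADH2 and the genes like it (r of 0.85 to 0.96) are above 0 on most WT arrays and below 0 on most L4 arrays, while GLB2 is highest on L4 S replicates 2 and 3, as are CIF1 and ARF3, and VPE5 is highest on L4 EC replicate 3.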

How the data were processed

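RNA from laser-captured root sectors was hybridised to 12 arrays (3 in each of 4 groups taken from the sample labels). The deposited values are log2 signals per probe set, made by the authors with GeneChip Command Console. The methods of summarising probes and normalizing arrays are not given in the sources used here. The table holds 10209 probe sets, of which 108 are array controls and the other 10101 entered the fit. Gene symbols came from the platform annotation (909 probe sets with 1 symbol and 9192 with none), of which 885 matched RefSeq (assembly SLM_r2.1) by gene ID. All 12 value columns were used.

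A linear model with 4 group means was fitted to all arrays with lmFit and eBayes (limma 3.58.1, R 4.3.3), with Benjamini-Hochberg adjustment over all probe sets. Calls needed an adjusted p under 0.05 and a 1.2-fold change. The fit was tested on simulated data. The members and the gene lists were chosen with earlier results of these data known, the members through their S differences, so only the EC difference was tested for them. Named genes were the members, the detected genes of the lists, the sector markers, and for each member the 5 named probe sets with the highest and the 3 with the lowest Pearson r, among those whose mean log2 signal reached 4. For a gene with several probe sets 1 main probe set was used. Correlations were computed in Python 3.11.15 with scipy 1.17.1. The alternatives were quantile normalization, median centring, a filter on low values, array weights, a trended robust variance, the spike-in signal as a covariate, fits of the arrays compared only, a replicate block, and leaving out each array. A fit without the 3 arrays of highest spike-in signal was added after seeing the data. The precision is limited by 3 arrays per group.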

Additional observations from a re-analysis of the deposited data

How the results depend on the processing

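The EC difference of ADH2 was negative under all 9 alternatives and without any single array. Its range was -2.32 to -1.88 under the alternatives and -2.32 to -1.66 without single arrays. In limma it passed the threshold only with array weights (-2.19, adjusted p = 0.0035, against 0.345), and the adjusted p reached 0.605 under the alternatives. The EC difference of GLB2 was negative throughout, -0.70 to -0.092 under the alternatives and -0.92 to -0.43 without single arrays, and passed under none. The count of probe sets called in the EC, 0 of 10101, was 1 with only the 6 EC arrays, 1467 with array weights, 8 without the 3 arrays of highest spike-in signal, and 0 to 10 without single arrays (10 without L4 EC replicate 1, 9 without WT EC replicate 1, 7 without L4 EC replicate 2). The cause was not tested. The correlation of the deviations of ADH2 and GLB2, -0.053, turned to 0.18 after quantile normalization and to 0.34 without the 3 arrays of highest spike-in signal, and was -0.19 to 0.078 without single arrays. It has no settled sign. The S differences, which carry no test, were -2.68 to -2.01 for ADH2 and 1.25 to 2.32 for GLB2 without single arrays, and the WT sector differences were -0.13 to 0.54 for ADH2 and -0.046 to 0.33 for GLB2.

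With the replicate number as a block the EC differences were -1.99 (adjusted p = 0.343) for ADH2 and -0.59 (adjusted p = 0.718) for GLB2, the S differences -2.37 and 1.70, and the WT sector differences 0.17 and 0.20, with 0 probe sets called in the EC, so the block changed no call. The block lowered the standard error of the EC difference from 0.44 to 0.33 for ADH2 and from 0.51 to 0.44 for GLB2. Deviations of arrays with the same number correlated at 0.062 to 0.63 between the WT sectors, -0.27 to 0.031 between the L4 sectors, -0.10 to 0.28 between the genotypes in the EC and 0.070 to 0.38 in the S. For arrays with different numbers the ranges were, in the same order, -0.53 to 0.52, -0.24 to 0.32, -0.215 to 0.33 and -0.36 to 0.14. The ranges overlapped each time, so the numbers were not taken to pair the samples. A pairing is not excluded by this.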
